A study of Rattus norvegicus with 2 samples.

Results

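The genes described here carry long-chain fatty acids into the muscle fibre, activate them and break them down by beta-oxidation. A total of 40 genes were chosen by symbol: 4 for uptake, 5 for activation, 4 of the carnitine shuttle, 14 of the beta-oxidation spiral and 13 for electron transfer, thioester hydrolysis, malonyl-CoA control, PPAR signalling and lipolysis. Of the 40, 39 had a probe set of their own, and 36 of these were measured among 9956 measured genes in all. A gene counted as measured where at least 1 array reached a signal floor of 19.8, the median of all signals, and 34 of the 36 reached it on both arrays. The samples were adductor muscle, from the inner thigh, of male Lewis rats of 275 g, an inbred strain. The stimulated sample came from the left hindlimb, 24 hours after 100 pricks with a steel needle of 0.14 mm within a 10 mm by 10 mm square. The control sample came from the right hindlimb, which was left untreated. Each limb was represented by 1 Affymetrix GeneChip array, so no difference below was tested or has a replicate check, and the count of animals behind each array is open.

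Working muscle takes up fatty acids through the membrane protein CD36 and transport proteins of the FATP family, binds them to a cytosolic carrier and joins them to coenzyme A. The carnitine shuttle moves the acyl group into the mitochondrion, and malonyl-CoA blocks its first enzyme. Inside, a cycle of dehydrogenation, hydration, a further dehydrogenation and thiolysis shortens the chain, and the electrons pass through the electron transfer flavoprotein to the respiratory chain. The PPAR nuclear receptors, paired with retinoid X receptors, bind fatty acids and switch on many of these genes. Slow oxidative fibres depend on the pathway more than fast glycolytic ones.

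The signals of the pathway were nearly level between the limbs. Of the 36 measured genes, 0 were at least 1.5-fold higher in the stimulated limb and 1, Acsl6, was at least 1.5-fold lower, while 6.59% of all measured genes were higher and 6.94% lower by that much. At 2-fold there were 0 in either direction, against 1.43% of all genes higher and 1.43% lower. Among the 30 pathway genes with a signal of 100 or more on both arrays, 0 were higher and 1 lower by 1.5-fold, and 4.13% and 2.81% of the 4307 genes that bright were, so 1 gene is close to that background. The median log2 ratio of stimulated over control was -0.036 for the pathway and 0.019 for all genes, with 13 of the 36 above 0 against 52.3% of all genes. Among the genes with a signal of 100 or more, the median was -0.0455 for the 30 and 0.0456 for the 4307. There, 9 of the 30 were above 0, against 57.3% of the 4307. The 30 are among the 36, so this adds no separate evidence of a lean to the lower side. The only error at hand is the disagreement between probe sets of the same gene, an SD of 0.31 for the log2 ratio of a single probe set, from 2174 genes. It leaves out the variation between limbs and animals. By that measure 30 of the 36 lay within 1 SD of 0, or 83.3%, against 62.4% of all genes. MAS5 signals carry more relative noise when low, so the same was counted where both arrays reached a signal of 100: 26 of 30 pathway genes lay within 1 SD, or 86.7%, against 72.4% of 4307 genes. The SD across genes was 0.22 for these 30 and 0.34 for the 4307.

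**Figure D1:**
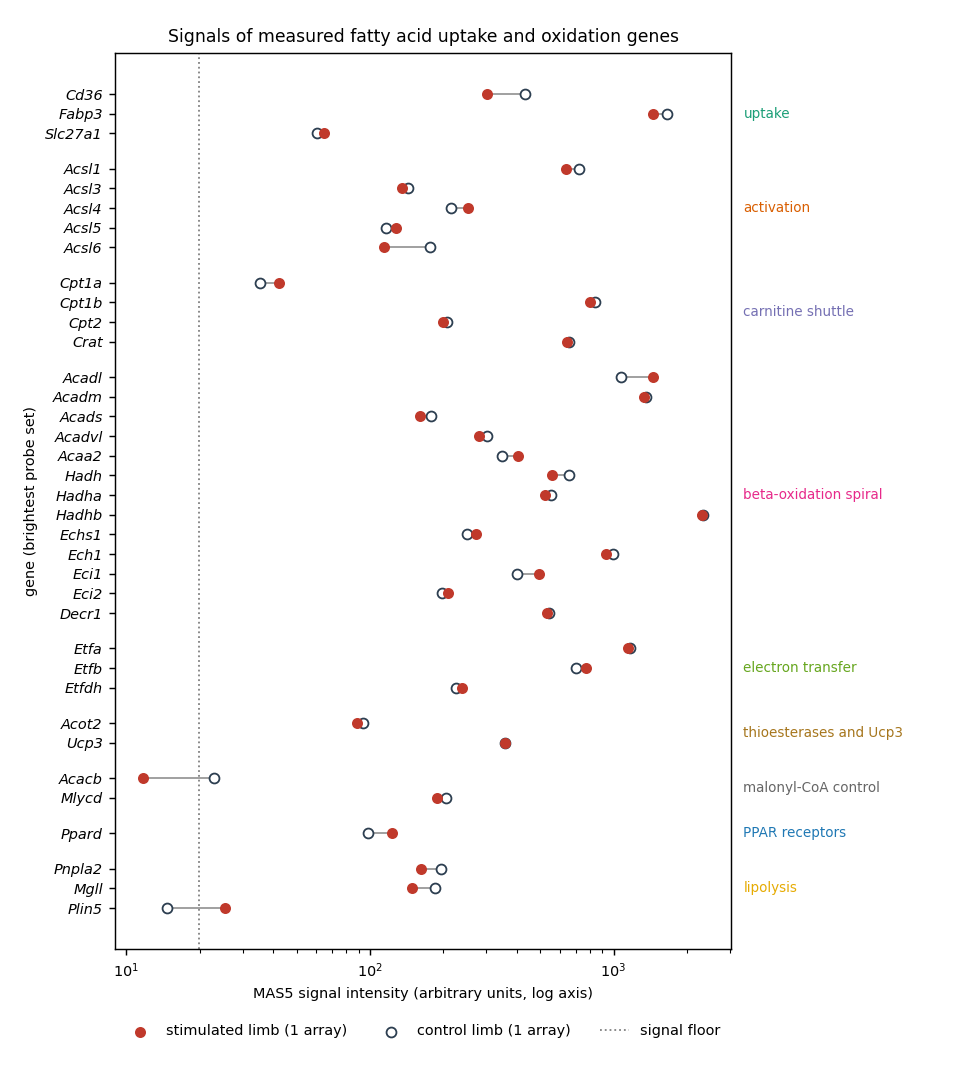
Signal of the brightest probe set of each of the 36 measured genes, on a log axis in arbitrary units, in the stimulated limb (filled) and the control limb (open), 1 array each. The dotted line is the floor of 19.8. The paired points lie close together for most genes, and only Acacb and Plin5 have 1 point below the floor. Signals of different genes come from different probes and are not compared.

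**Figure D2:**
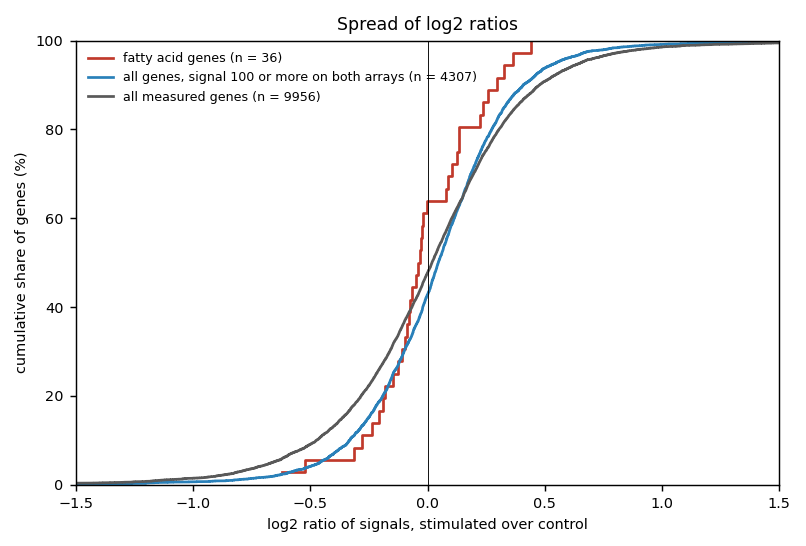
Cumulative share of genes, in percent, by log2 ratio of stimulated over control, for the 36 fatty acid genes, the 4307 genes with signals of 100 or more on both arrays and all 9956 measured genes. The curve of the fatty acid genes spans -0.62 to 0.44. The axis stops at 1.5 in each direction, and the full range of all genes is -2.75 to 7.17.

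The arrays themselves set the scale of these values. Of the probe sets, 48.9% reached the floor on the stimulated array and 51.1% on the control array. For beta-actin, the signal near the 3' end over that near the 5' end, a gauge of RNA integrity, came to 2.43 for stimulated and 2.26 for control muscle. The hybridisation spike-ins, foreign sequences of known amount, had a median log2 ratio of -0.38, and all 18 had the lower signal on the stimulated array. Scaling to them would move the median of all genes to 0.39, so "higher" and "lower" hold for the scale of the deposited values, on which that median is 0.019. The muscle identity of both samples was plain. Of 17 fibre genes, 16 were measured, with a median log2 ratio of -0.30, 11 below 0 and 5 above. Actin, Acta1, was the lowest of them, at 12095 in stimulated muscle and 16712 in control muscle. Myh2 was the highest, at 2010 in stimulated muscle and 1007.5 in control muscle (0.997).

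Among the uptake genes, Cd36 differed most. Cd36, the fatty acid translocase of fibres, endothelium, adipocytes and macrophages, had a signal of 302 in the stimulated and 434 in the control limb, 1.44-fold lower with a log2 ratio of -0.52. By brightest probe set this is the second lowest value of the pathway, and it lies outside 1 probe set SD. Another probe set, annotated to Cd36 and Cd36l1 together and therefore not counted, read 634 in the stimulated and 735 in the control limb, a log2 ratio of -0.21. Fabp3, the fatty acid binding protein of heart and muscle, read 1449 in the stimulated and 1651 in the control limb (log2 ratio -0.19). Slc27a1, or FATP1, the transport protein typical of muscle, read 64.9 in the stimulated and 60.4 in the control limb (0.10). Both lay within the probe set SD. Slc27a4, or FATP4, was below the floor on both arrays, at 7.1 and 17.4 in the stimulated and control samples. The median of the 3 measured uptake genes was -0.19.

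Cd36 is not specific to fibres, and markers of other cells that carry it differed between the samples. Of 15 measured endothelial markers, 14 were below 0, with a median log2 ratio of -0.63 and a summed signal of 2052 in stimulated muscle and 3217 in control muscle. Of 9 measured adipocyte markers, 8 were below 0, with a median of -0.91 and a summed signal of 4719 in the stimulated sample against 9250 in the control sample. Car3, which skeletal muscle also expresses, made up most of that sum, and without it the median was -0.93 and the sum 1512 in the stimulated sample against 3227 in the control sample. Some of their genes were above the floor in both samples: Pecam1 read 68.9 in stimulated muscle and 120 in control muscle, and Adipoq 58.7 in stimulated muscle and 199 in control muscle. Others fell below the floor in the stimulated sample only. The endothelial Flt1 read 17.1 in stimulated and 43.8 in control muscle. The adipocyte genes Plin1 and Cidec read 15.8 and 15.7 in stimulated muscle and 63.8 and 57.6 in control muscle. Leptin, Lep, was below the floor on both arrays. All 17 monocyte and macrophage markers were above 0, with a median of 0.68 and a summed signal of 17726 in the stimulated sample against 7015 in the control sample. They differed by very unequal amounts. Spp1 read 2847 in stimulated muscle and 12.7, under the floor, in control muscle, and Gpnmb read 3165 in stimulated and 188 in control muscle. Cd14, Cd163 and Itgam had log2 ratios of 0.084, 0.090 and 0.15, within the probe set SD. The part of these cells in the Cd36 value was not tested. In a bulk sample, fewer cells of a type and less RNA per cell cannot be told apart.

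Long-chain acyl-CoA synthetases, which activate fatty acids, were all measured and went both ways. Acsl1, the main muscle form, read 636 in the stimulated and 721 in the control limb (log2 ratio -0.18), and a second probe set gave -0.24. Acsl3, found on lipid droplets and the endoplasmic reticulum, read 135 in the stimulated and 144 in the control limb (-0.086). Acsl4, which prefers arachidonic acid, read 254 in the stimulated and 215 in the control limb (0.24). Acsl5 read 128 in the stimulated and 117 in the control limb (0.13), with a second probe set at 0.17. These 4 genes lay within the probe set SD, and where a second probe set existed it had the same sign.

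Acsl6, a form known from brain, red cells and muscle, stood outside that range. It read 114 in the stimulated and 176 in the control limb, 1.54-fold lower with a log2 ratio of -0.62, the lowest of the pathway. It rests on 1 probe set, since its other one read 6.0 in the stimulated and 13.2 in the control limb, both below the floor. The ratio lay between -0.62 and -0.56 under the 7 alternatives other than spike-in scaling, under which it was -0.24. With a pseudocount of 16 in place of the floor it came to -0.56, just short of 1.5-fold. The median of the 5 activation genes was -0.086.

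The carnitine shuttle was level. Cpt1b, the muscle form of carnitine palmitoyltransferase 1 and the enzyme that malonyl-CoA blocks, read 804 in the stimulated and 841 in the control limb (log2 ratio -0.065). Cpt2, which returns the acyl group to coenzyme A on the inner membrane, read 200.3 in the stimulated and 207 in the control limb (-0.051). Crat, carnitine acetyltransferase, which buffers acetyl-CoA, read 641 in the stimulated and 659 in the control limb (-0.040). All 3 lay well within the probe set SD. Cpt1a, the liver form, also expressed by non-fibre cells, read 42.5 in the stimulated and 35.5 in the control limb (0.26), and its second probe set, near the floor, gave -0.024. The carrier Slc25a20, which exchanges acylcarnitine across the inner membrane and was listed apart, read 188 in the stimulated and 193 in the control limb (-0.036).

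The beta-oxidation spiral held 14 genes, of which 13 were measured, with a median log2 ratio of -0.022, 5 above 0, 8 below, and 0 beyond 1.5-fold in either direction. Of all measured genes, 6.59% were that much higher and 6.94% that much lower. Acadl, long-chain acyl-CoA dehydrogenase, was the highest gene of the pathway, with 1452 in the stimulated and 1069 in the control limb, 1.36-fold higher at a log2 ratio of 0.44. It was the only spiral gene outside the probe set SD, has 1 probe set, and lay between 0.39 and 0.44 under the alternatives other than spike-in scaling. The other chain-length forms did not share this direction. Acadvl, the very-long-chain form, read 280 in the stimulated and 302 in the control limb (-0.11). Acadm, the medium-chain form, read 1332 in the stimulated and 1362 in the control limb (-0.032). Acads, the short-chain form, read 161 in the stimulated and 179 in the control limb (-0.15).

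The trifunctional protein, which carries out the later steps on long chains, has its alpha subunit encoded by Hadha and its beta subunit by Hadhb. Hadha read 523 in the stimulated and 552 in the control limb (log2 ratio -0.076), and Hadhb read 2300.2 in the stimulated and 2333 in the control limb (-0.020). Both subunits were thus level and differed from each other by far less than the probe set SD. In the RefSeq annotation of assembly GRCr8 the genes lie head to head, and the 243 bases between them are shown because both are read outward from this stretch. They span chr6:31907558-31907800 and are written on the Hadha strand, 5′ to 3′, from RefSeq, with the GC box GGGCGG, here on the opposite strand, in capitals.
Hadha and Hadhb: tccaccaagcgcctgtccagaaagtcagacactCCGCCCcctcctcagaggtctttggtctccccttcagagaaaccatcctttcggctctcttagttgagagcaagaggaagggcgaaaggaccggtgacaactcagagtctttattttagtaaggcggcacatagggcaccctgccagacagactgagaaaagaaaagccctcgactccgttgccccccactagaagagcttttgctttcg
The stretch holds 1 GC box and is 53.5% G and C. It holds no AGGTCA, the half-site that PPAR and related receptors bind, on either strand. The longer promoter window of Hadhb, counted further below, does hold AGGTCA, while that of Hadha does not.

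The remaining spiral enzymes lay within the probe set SD on both sides of 0. Hadh, the short-chain hydroxyacyl-CoA dehydrogenase, read 557 in the stimulated and 656 in the control limb (log2 ratio -0.24), the lowest of the spiral. Echs1, the short-chain hydratase, read 273 in the stimulated and 249 in the control limb (0.13). Acaa2, the mitochondrial thiolase, read 406 in the stimulated and 348 in the control limb (0.22). These enzymes of successive steps for shorter chains thus went both ways by small amounts. Acaa1a, a peroxisomal thiolase, had no probe set of its own, and the one annotated to Acaa1a and Acaa1b together read 89.9 in the stimulated and 77.2 in the control limb.

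Unsaturated fatty acids need auxiliary enzymes that move their double bonds. Eci1, enoyl-CoA isomerase 1, read 494 in the stimulated and 402 in the control limb (log2 ratio 0.30), just inside the probe set SD. Its probe set is one of a kind that can match related sequences, and its other probe set was below the floor. Eci2, a second isomerase, read 209.8 in the stimulated and 198 in the control limb (0.080), and a probe set it shares with Eci3 read 135 in the stimulated and 133 in the control limb. Decr1, dienoyl-CoA reductase, read 533 in the stimulated and 541 in the control limb (-0.022), and Ech1, dienoyl-CoA isomerase, 932 in the stimulated and 997 in the control limb (-0.097). None of the 4 lay outside the probe set SD.

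Electron transfer from the acyl-CoA dehydrogenases was level too. Etfa and Etfb, the subunits of the electron transfer flavoprotein, had log2 ratios of -0.029 and 0.13, with Etfa at 1149 in the stimulated and 1172 in the control limb and Etfb at 769 in the stimulated and 704 in the control limb. Etfdh, which passes the electrons to ubiquinone, read 239 in the stimulated and 225 in the control limb (0.089).

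**Figure D3:**
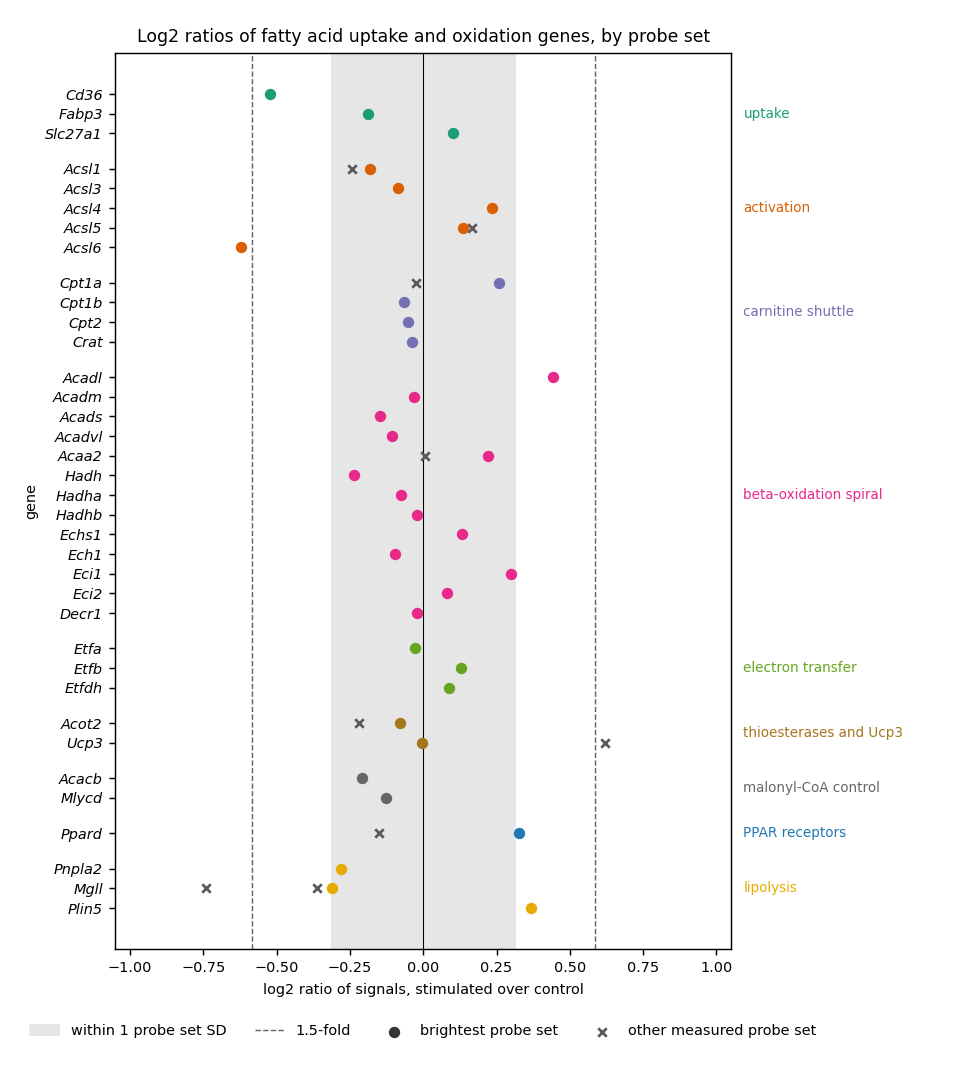
Log2 ratio of stimulated over control for each measured gene by step, with the brightest probe set as a coloured dot and other measured probe sets as crosses. The grey band is 1 probe set SD (0.31) on each side of 0 and the dashed lines mark 1.5-fold. Acsl6 is the only dot past a dashed line, and single crosses of Ucp3 and Mgll also lie past one.

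Ucp3, an uncoupling protein of muscle mitochondria that PPAR agonists and fatty acids induce, gave conflicting readings. Its brightest probe set read 358 in the stimulated and 359 in the control limb (log2 ratio -0.0045), and its second read 233 in the stimulated and 152 in the control limb (0.62). The probe sets differ by 0.63, the widest gap among the 6 pathway genes with more than 1 probe set above the floor on both arrays, of which 4 had probe sets of 1 sign. The thioesterase Acot2, which frees fatty acids from coenzyme A in mitochondria, read 88.8 in the stimulated and 94.0 in the control limb (-0.081), and its second probe set gave -0.22. Acot1, the cytosolic form, was below the floor on both arrays.

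The malonyl-CoA brake was dim or level. Acacb, the acetyl-CoA carboxylase of the mitochondrial surface that makes malonyl-CoA, had 11.7 on the stimulated array, under the floor, and 22.9 on the control array, so it was at least 1.16-fold lower. Mlycd, which degrades malonyl-CoA, read 188 in the stimulated and 205 in the control limb (log2 ratio -0.13). Among the receptors, Ppard, the main PPAR of muscle, read 123 in the stimulated and 98.0 in the control limb (0.33), but its other probe set gave -0.15 with only the control signal, 21.9, above the floor. Ppara was below the floor on both arrays.

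Lipolysis genes, which release fatty acids from droplets, were split. Mgll, monoglyceride lipase, read 149 in the stimulated and 185 in the control limb (log2 ratio -0.31). Its other 2 measured probe sets gave -0.36 and -0.74, so all 3 were lower in the stimulated limb. Pnpla2, or ATGL, which starts triglyceride breakdown, read 161 in the stimulated and 196 in the control limb (-0.28). Plin5, a droplet coat protein of oxidative tissue, went the other way, at 25.5 on the stimulated and 14.7 on the control array, the second of these under the floor, which makes it at least 1.29-fold higher. Mgll and Pnpla2 are also adipocyte genes, and the adipocyte markers were lower, as given beside Cd36. Their part in these values was not tested.

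Beyond 1 probe set SD lay 6 genes, Cd36, Acsl6 and Mgll on the lower side and Acadl, Plin5 and Ppard on the higher side. The bases just before the start are shown for 4 of them, Cd36, Acsl6, Mgll and Plin5, and for Ucp3, whose probe sets disagreed. Each is 100 bases on the strand of the gene, from RefSeq on GRCr8, ending just before the annotated start, and capitals mark any half-site AGGTCA, any TATA box (TATAAA) and any GC box (GGGCGG) on either strand. Cd36 and Acsl6 have starts further upstream in the annotation, and the arrays do not show which start was used.
Cd36 (chr4:18246482-18246581, + strand): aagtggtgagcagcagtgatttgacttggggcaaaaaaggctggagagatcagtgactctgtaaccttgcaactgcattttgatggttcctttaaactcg
Acsl6 (chr10:38952061-38952160, + strand): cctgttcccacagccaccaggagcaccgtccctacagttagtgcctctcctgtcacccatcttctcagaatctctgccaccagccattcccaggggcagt
Mgll (chr4:122749336-122749435, + strand): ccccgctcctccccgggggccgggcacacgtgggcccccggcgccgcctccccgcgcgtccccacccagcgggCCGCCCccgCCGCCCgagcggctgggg
Plin5 (chr9:1033285-1033384, - strand): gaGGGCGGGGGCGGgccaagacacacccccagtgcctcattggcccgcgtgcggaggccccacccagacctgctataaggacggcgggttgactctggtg
Ucp3 (chr1:164227810-164227909, + strand): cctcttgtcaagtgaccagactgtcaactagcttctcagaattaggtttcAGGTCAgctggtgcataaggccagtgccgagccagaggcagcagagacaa
The Mgll stretch is 89.0% G and C with 2 GC boxes, and the Plin5 stretch also holds 2 GC boxes. The Ucp3 stretch holds 1 AGGTCA, while those of Cd36 and Acsl6 hold none of the 3 motifs within these 100 bases. The longer promoter windows described next do hold a TATA box for Cd36, a GC box for Acsl6 and AGGTCA for Plin5.

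Promoter windows of 300 bases, 250 before and 50 after the start, were found for 34 of the 40 genes. AGGTCA occurred on either strand in 9 of the 34 windows, or 26.5%, against 16.2% of all 33469 windows in the table. The same half-site repeated in 1 direction with 1 base between, the element that PPAR pairs bind, was in 0 of 34 and in 0.0538% of all windows. It holds AGGTCA within it, so the searches overlap. The GC box occurred in 22 of 34, or 64.7%, against 33.1% of all, and the TATA box in 3 of 34, or 8.82%, against 14.2%. The 33469 windows were not limited to the 9956 measured genes, so these shares cannot show a trait particular to the pathway. The windows say nothing of binding outside them or of sites with other letters.

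Around the pathway, a further 103 genes of lipid metabolism in 8 lists were measured. Of these, 3 passed 1.5-fold upward and 9 downward, numbers to be read against the 6.59% and 6.94% of all measured genes, with a median log2 ratio of -0.0058. Their SD across genes was 0.39, against 0.23 for the 36 pathway genes and 0.43 for all measured genes.

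Genes that regulate the pathway or are targets of PPAR went both ways, with 9 of 20 above 0. Of the 20 measured, 3 passed 1.5-fold downward and 0 upward, against 6.94% and 6.59% of all genes, with a median of -0.12. Rxra, the partner of the PPARs, read 63.6 in the stimulated and 123 in the control limb, 1.94-fold lower. Angptl4, a secreted inhibitor of lipoprotein lipase that PPARs induce, read 64.8 in the stimulated and 124 in the control limb, 1.91-fold lower. The coactivator Ppargc1b read 29.5 in the stimulated and 45.1 in the control limb, 1.53-fold lower. Pdk4, which shuts off pyruvate oxidation when fat is burned, read 704 in the stimulated and 750 in the control limb (log2 ratio -0.091), with a second probe set at -0.57. Ppargc1a, the coactivator of mitochondrial genes, read 72.1 in the stimulated and 80.4 in the control limb (-0.16), with another probe set at -0.51. The oestrogen-related receptor Esrrb was lower, with 23.8 in the stimulated and 35.1 in the control limb (-0.56). Others were higher: Esrrg, an oestrogen-related receptor of oxidative tissue, read 97.0 in the stimulated and 68.2 in the control limb (0.51), with its second probe set at 0.56. Nrf1 was at least 1.43-fold higher, with 28.2 in the stimulated limb and a control signal of 18.3, under the floor.

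Lipid droplet genes went both ways. Plin2, the general droplet coat protein, read 198 in the stimulated and 133 in the control limb, 1.49-fold higher. Its second probe set agreed in sign, at 0.97. G0s2, which inhibits ATGL, read 361 in the stimulated and 628 in the control limb, 1.74-fold lower. Cidec, a droplet protein of fat cells, was at least 2.91-fold lower, with 15.7 in the stimulated limb, below the floor, and 57.6 in the control limb. Of the 15 measured, 2 passed 1.5-fold downward and 0 upward, against 6.94% and 6.59% of all genes. Macrophages also hold Plin2, and their markers were higher in the stimulated sample while those of adipocytes, Cidec among them, were lower. Their part was not tested.

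Lists closest to the spiral also had medians near 0. Of 12 measured peroxisomal oxidation genes, 0 passed 1.5-fold, against 6.59% of all genes upward and 6.94% downward, with a median of -0.011. By brightest probe set Phyh, the phytanoyl-CoA hydroxylase, was the most different, at 2203 in the stimulated and 2950 in the control limb (-0.42). Its second probe set read 2063 in the stimulated and 2399 in the control limb (-0.22), within the probe set SD. Pecr was at -0.29, and Pex11a was at least 1.23-fold lower with a stimulated signal of 16.6, under the floor. Of 19 other mitochondrial acyl-CoA genes, 1 was at least 1.5-fold lower and 0 higher, against 6.94% and 6.59% of all genes, with a median of 0.013. That gene was Acadsb, the dehydrogenase of short branched chains from isoleucine, with 111 in the stimulated and 192 in the control limb, 1.73-fold lower. Acad10 (-0.57) and Echdc3 (0.43) followed. The 3 measured ketone body genes, Bdh2 (-0.22), Oxct1 (0.079) and Acat1 (0.013), were within the probe set SD.

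Outside the oxidation steps, the median log2 ratio was -0.036 for other uptake and carnitine transport and 0.17 for other synthetases and thioesterases. Of 9 measured genes of other uptake and carnitine transport, 1 was at least 1.5-fold lower and 0 higher, against 6.94% and 6.59% of all genes. It was the transporter Slc27a3, whose stimulated signal of 14.9 was below the floor against 29.7 in the control limb. Lpl, the lipase that frees fatty acids from lipoproteins, read 601 in the stimulated and 580 in the control limb (0.052), and Gpihbp1, which anchors it to capillary endothelium, had a log2 ratio of -0.39. Slc27a2 was at -0.14. Of 10 other synthetases and thioesterases, the thioesterase Acot7 was 1.58-fold higher, at 161 in the stimulated and 102 in the control limb, and 0 were at least 1.5-fold lower. Acsm5, at least 1.49-fold higher, and Acot9, 1.44-fold higher, were next.

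Of 16 measured genes of fatty acid synthesis and its kinase AMPK, 2 passed 1.5-fold upward and 2 downward, against 6.59% and 6.94% of all genes. Elovl1, which lengthens fatty acids, was 1.76-fold higher (158 in the stimulated and 89.9 in the control limb), and Fasn, fatty acid synthase, 1.68-fold higher (52.0 in the stimulated and 30.9 in the control limb). Prkaa2, the AMPK catalytic subunit abundant in muscle, was 1.53-fold lower, with 1025 in the stimulated and 1563 in the control limb, and a regulatory subunit, Prkag2, was at -0.61, with 31.6 in the stimulated and 48.1 in the control limb. The other Prkag2 probe sets above the floor gave -0.32 and 0.077, and the other catalytic subunit, Prkaa1, was higher, with 148 in the stimulated and 107 in the control limb (0.46). AMPK phosphorylates and inhibits acetyl-CoA carboxylase.

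Slow-fibre markers stood far from the pathway in the same arrays. All 11 measured slow-fibre genes were above 0 by their brightest probe set, 9 of them at least 1.5-fold higher, against 6.59% of all genes. Their median log2 ratio was 1.60, and their summed signal was 3444 in stimulated muscle and 1567 in control muscle. Tpm3, at 0.25, had other measured probe sets on both sides of 0, from -0.71 to 1.53. Myh7 and Tnnt1 had control signals of 2.2 and 13.3, under the floor. Fibroblast markers had a median of -0.26 over 11 genes, with 3 above 0 and 8 below. Beyond 1.5-fold there were 0 in either direction, against 6.59% of all genes higher and 6.94% lower.

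**Figure D4:**
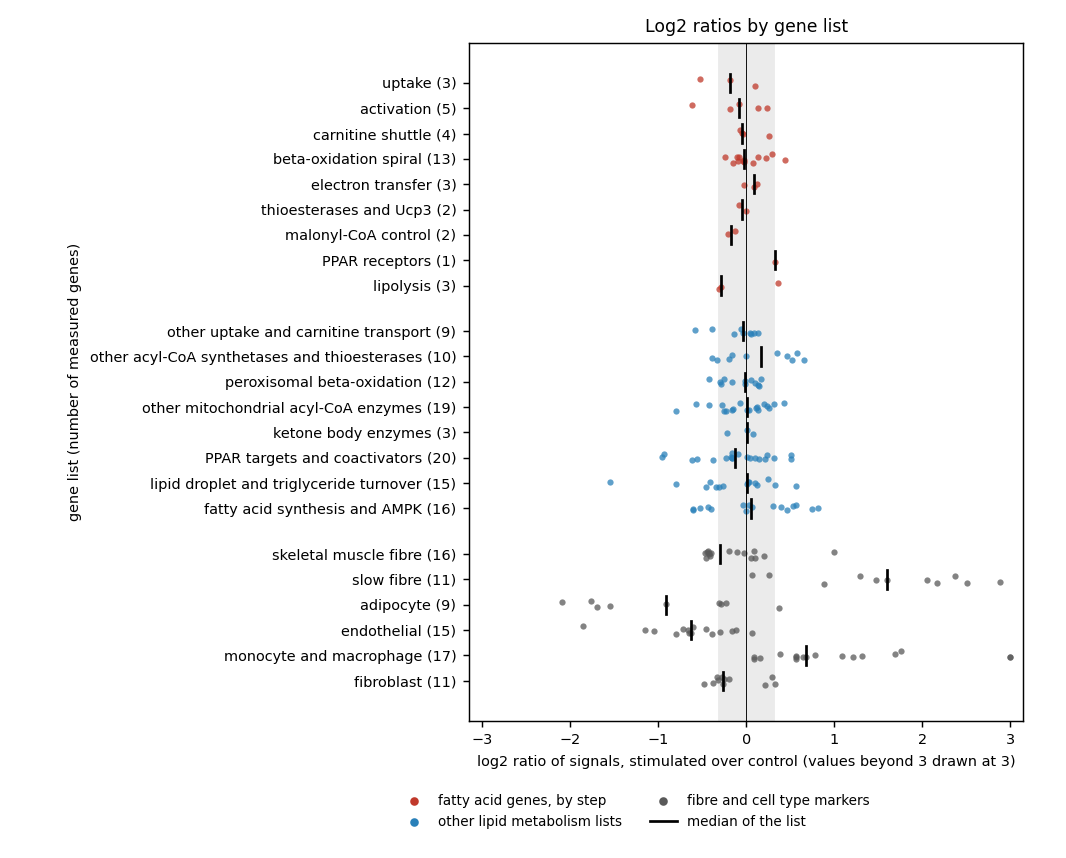
Log2 ratio of stimulated over control for every measured gene of each list, with the median as a black bar and the number of measured genes in brackets. The grey band is 1 probe set SD on each side of 0, and values beyond 3 are drawn at 3. The medians of the fatty acid steps (red) run from -0.28 for lipolysis to 0.33 for the single PPAR receptor measured, and the spiral, with the most genes, is at -0.022, while slow-fibre (median 1.60) and macrophage markers (0.68) lie above it and adipocyte (-0.91) and endothelial markers (-0.63) below.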

How the data were processed

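Total RNA from 1 stimulated and 1 control muscle sample was labelled with biotin in a single cycle and hybridised to 1 array each, per the labels' protocols. The deposited values are linear signal intensities per probe set, which the authors computed by MAS5 (per the submitters' processing notes). The sources used here name no version, scaling target or genome build. Trimming 2% at each end gave a mean of 76.5 on both arrays. Of 31099 probe sets, 57 controls were left out, 20826 had 1 gene symbol in the platform annotation, 436 had several and 9780 had none listed. All 39 pathway genes with a probe set matched RefSeq by gene identifier.

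Signals below the floor of 19.8 were raised to it before log2 ratios were taken, so a fold with 1 array below it is a lower bound. A gene's value is that of its brightest measured probe set, by mean log2 signal. The probe set SD came from the 2 brightest probe sets per gene. With 1 array per group no test was made; the number of arrays limits precision. The counting was tested on simulated data. All pathway genes were named; of other lists, the 3 genes with the largest absolute ratio, plus Lpl, Slc25a20, Pdk4, Angptl4 and Ppargc1a where measured. Chosen after their values were seen were Prkag2, Prkaa1, Esrrg, Esrrb, Nrf1, Acta1, Pecam1, Flt1, Adipoq, Plin1, Lep, Car3, Tpm3, Myh7 and Tnnt1. So were Spp1, Gpnmb, Cd14, Cd163, Itgam and Myh2. Leaving Car3 out of the adipocyte list was also decided then. The genes and lists were chosen with earlier results of these data known. Python 3.11.15, numpy 2.4.6 and pandas 2.3.3 were used, and 8 alternatives were tried.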

Additional observations from a re-analysis of the deposited data

How the results depend on the processing

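With 1 array per limb, no replicate could be left out and no error between animals is known. No paired analysis was possible because each group has 1 array. The median log2 ratios of the whole pathway, uptake, activation and the spiral moved by less than the probe set SD over the root of the number of genes under 7 of 8 alternatives. For uptake, with 2 to 4 genes, this is a wide margin. Its median, -0.19 in the main setting, was -0.36 with a 25th or 75th percentile floor or no floor or filter. Without suffixed probe sets it was -0.043. Scaling to the spike-ins moved them to 0.35, 0.20, 0.30 and 0.36 while the median of all genes moved to 0.39, so the pathway stayed close to the median gene. It put 33 genes above 0, 6 at least 1.5-fold higher (Acaa2, Acadl, Acsl4, Cpt1a, Eci1 and Ppard) and 0 lower. Other counts of at least 1.5-fold were 1 higher and 3 lower with a 25th percentile floor, 2 higher and 4 lower with no floor or filter, and 0 lower with a pseudocount of 16; the added genes (Plin5, Ppara, Acacb, Acot1 and Slc27a4) had signals below or near the floor. Over all genes, 1.5-fold counts were 1328 higher and 1622 lower with a 25th percentile floor, 271 and 199 with a 75th percentile floor, 2011 and 2347 with no floor or filter, and 2822 and 181 with spike-in scaling. The 2-fold counts were 474 and 596, 52 and 49, 1129 and 1279, and 535 and 44 under the same settings. Apart from spike-in scaling, Ucp3 alone changed sign, to 0.31 with the median over probe sets. Without suffixed probe sets Cd36 and Eci1 had no value. Low signal limits Acacb, Plin5, Cpt1a and the genes below the floor.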
